A study of Mus musculus with 8 samples.

Results

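Natriuretic peptides are hormones that lower blood volume and pressure. Their pathway in the mouse left ventricle was read from 8 genes, chosen by name: the peptide genes Nppa, Nppb and Nppc, the receptor genes Npr1, Npr2 and Npr3, and the protease genes Corin and Furin. All 8 were measured, out of 22180 genes with a symbol of their own on the array, and each was read from the probe set of highest mean. The study set 3 states of pregnancy and the early post-partum period against non-pregnant mice in diestrus, a phase of the estrous cycle. All mice were C57BL/6 females of 3 to 4 months, with no engineered allele or drug named in the labels. The 4 groups, of 2 arrays each, were diestrus (replicates 2 and 3), day 12 of pregnancy (replicates 2 and 3), day 19 of pregnancy (replicates 1 and 2) and day 1.5 post-partum (replicates 2 and 4). The protocol gives the late pregnancy group as day 18 or 19. Each array measured RNA from 1 piece of the dissected left ventricle.

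Atrial natriuretic peptide, encoded by Nppa, and B-type natriuretic peptide, encoded by Nppb, are released by heart muscle cells when the wall is stretched. Both bind the receptor encoded by Npr1, a guanylyl cyclase that makes the messenger cyclic GMP. C-type natriuretic peptide, encoded by Nppc, acts mainly on the cyclase encoded by Npr2, while the receptor encoded by Npr3 takes up all of these peptides and removes them. Corin is a heart muscle membrane protease that cuts the atrial precursor, and furin cuts the B-type and C-type precursors. In the adult heart Nppa is chiefly an atrial gene, and a ventricle under load makes more of both Nppa and Nppb.

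Nppa and Nppb are neighbours in the mouse genome, with no other protein-coding gene between them in the RefSeq gene table of GRCm38.p6. The 250 bases before the RefSeq start of each are shown because these were the 2 members whose day 19 values both lay above their day 12 values. The Nppb stretch lies at chr4:147985650-147985899 and the Nppa stretch at chr4:148000472-148000721, both on the plus strand of GRCm38.p6. Capitals mark matches, on either strand, to AGATAA or TGATAA (spellings of the GATA factor site), AAGTG (the core of the Nkx2-5 site), CATTCC (the MCAT box, read here as its reverse complement) and TATAAA (the TATA box).
Nppb: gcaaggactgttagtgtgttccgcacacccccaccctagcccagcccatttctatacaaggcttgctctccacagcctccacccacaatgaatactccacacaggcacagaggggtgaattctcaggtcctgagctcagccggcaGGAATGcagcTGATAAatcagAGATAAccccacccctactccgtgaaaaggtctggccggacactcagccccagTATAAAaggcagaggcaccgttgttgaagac
Nppa: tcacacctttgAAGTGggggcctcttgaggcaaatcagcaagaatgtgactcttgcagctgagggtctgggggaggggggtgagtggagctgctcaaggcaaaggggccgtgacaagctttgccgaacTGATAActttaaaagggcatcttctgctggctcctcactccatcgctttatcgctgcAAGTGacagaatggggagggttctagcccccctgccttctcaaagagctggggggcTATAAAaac
Both stretches held 1 TATAAA, 31 bases before the Nppb start and 9 bases before the Nppa start, and 1 TGATAA, 95 and 122 bases before them. The Nppb stretch also held 1 AGATAA at 84 bases and 1 CATTCC at 105 bases before the start, next to the TGATAA without overlap. The Nppa stretch held 2 copies of AAGTG, at 239 and 65 bases. Among 32817 stretches of 250 bases before RefSeq starts, TATAAA stood in 12.4%, TGATAA in 7.95%, AGATAA in 9.99%, CATTCC in 12.6% and AAGTG in 40.7%. The AP-1 site TGANTCA, present in 6.75% of all stretches, had 0 matches in both. All 8 members matched the promoter table, with 9 stretches, and of the other 6 genes only Nppc and Furin held any of these motifs: 1 TATAAA in Nppc, and 1 TATAAA and 4 AAGTG in 1 of the 2 Furin stretches. TGATAA was added to the search after the sequences were seen. A match describes the letters and was not tested as a binding site.

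Values are log2 expression values, on which a step of 1 is a doubling, and levels are compared only within a gene. All 8 genes reached the filter, a value of 5.19, in the mean of every group, so none passed it through 1 state alone. The labelled tissue was checked against marker genes. The ventricular light chain genes Myl2 (8.46 to 8.87) and Myl3 (11.93 to 12.24) and the ventricular factor Irx4 (8.06 to 8.88) were above the filter value on all arrays. The atrial light chain gene Myl7 was at 4.56 to 5.12 on 5 arrays, but at 8.24 on diestrus replicate 3, 10.04 on day 12 replicate 3 and 11.76 on day 19 replicate 1. The summed level of the 11 atrial markers, as log2, was 10.71 and 11.08 in diestrus, 10.77 and 11.54 at day 12, 12.85 and 10.42 at day 19 and 10.57 and 10.73 post-partum. The atrial gene Sln moved with Myl7, at 6.21, 7.89 and 10.62 on those 3 arrays and 3.75 to 4.52 on the others. Of the other atrial markers, Myl4 and Dkk3 also had their highest values on those 3 arrays. Bmp10, Stard10, Nr2f1, Nr2f2, Kcnj3, Kcna5 and Gja5 did not. Of these, Bmp10, Stard10 and Gja5 were highest on day 19 replicate 1 alone, at 8.06, 9.59 and 5.95. On the other arrays Bmp10 was at 4.35 to 5.12 and Stard10 at 8.01 to 8.80. Nr2f1, Nr2f2, Kcnj3 and Kcna5 were not highest on that array. Kcnj3, for one, stood at 9.41, 9.23 and 9.11 on the 3 arrays of high Myl7 and at 8.82 to 9.67 on the others. On day 19 replicate 2, 8 macrophage markers averaged 1.56 above their diestrus mean and 8 interferon response genes 2.36 above. On that array 10 fibroblast markers averaged -0.65, 8 mural cell markers -0.50 and 8 endothelial markers -0.38 against diestrus. The summed log2 level of 8 cardiomyocyte markers was 15.51 to 15.71 on the 8 arrays, and that of the 2 measured of 6 red cell markers was 6.41 and 6.43 in diestrus and 6.94 to 7.80 elsewhere. In whole tissue, fewer cells of a type and less RNA per cell cannot be told apart.

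Nppb was highest in late pregnancy. Its values were 11.35 and 10.42 in diestrus, 10.959 and 11.003 at day 12, 11.74 and 11.81 at day 19 and 11.60 and 11.29 post-partum. Both day 19 arrays were above the other 6 arrays, and the diestrus pair had the widest gap, 0.94, against 0.076 at day 19 and 0.045 at day 12. The order of the group means was day 19 (11.78 ± 0.054, SD, n = 2), post-partum (11.44 ± 0.22), day 12 (10.98 ± 0.031) and diestrus (10.89 ± 0.66). Day 12 and diestrus, next to each other in that order, overlapped, and so did post-partum and diestrus.

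Against diestrus, Nppb at day 19 differed by 0.89 ± 0.28 log2 (SE, n = 2 per group; 95% interval 0.24 to 1.54), or 1.85-fold. Its unadjusted p in limma was 0.0133 and its adjusted p, by Benjamini-Hochberg over 13872 genes, 0.657. The size depended on the diestrus array: 0.42 without diestrus replicate 3 and 1.36 without replicate 2. Against day 12 the difference was 0.79 ± 0.28 log2, or 1.73-fold (unadjusted p = 0.0223, adjusted p = 0.675 in limma). It ranged from 0.76 to 0.83 when 1 array of either group was left out, and arrays of the other groups cannot move it. Post-partum Nppb was 0.33 ± 0.28 log2 below day 19 on average, a difference of -0.33 (adjusted p = 0.697), with both post-partum arrays below both day 19 arrays. It was 0.56 ± 0.28 above diestrus (adjusted p = 0.722), with overlapping groups, and 0.46 ± 0.28 above day 12 (adjusted p = 0.664), without overlap. The post-partum difference from diestrus was 0.090 without diestrus replicate 3 and 1.03 without replicate 2. That from day 19 was -0.18 without post-partum replicate 4, and that from day 12 was 0.31 without post-partum replicate 2. The comparisons with diestrus share its 2 arrays, so they are not independent of each other.

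Nppa, the atrial peptide gene, had its highest value on 1 day 19 array and scattered widely in 3 of the 4 groups. It stood at 11.92 and 11.03 in diestrus, 11.23 and 11.13 at day 12, 12.66 and 11.77 at day 19 and 11.21 and 12.02 post-partum. The highest array was day 19 replicate 1, also the array of highest Myl7. The diestrus and day 19 pairs each differed by 0.89, the post-partum pair by 0.81 and the day 12 pair by 0.10, and apart from day 19 against day 12 no 2 groups stood clear of each other. The order of the means was day 19 (12.21), post-partum (11.61), diestrus (11.48) and day 12 (11.18).

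At day 19 Nppa differed from day 12 by 1.04 ± 0.40 log2, or 2.05-fold (unadjusted p = 0.0337, adjusted p = 0.675 in limma), and from diestrus by 0.74 ± 0.40, or 1.67-fold (adjusted p = 0.661). Without day 19 replicate 1 these differences were 0.59 and 0.29, and without replicate 2 they were 1.48 and 1.18. With the 3 arrays of highest Myl7 left out together they were 0.54 and -0.15, and those of Nppb were 0.86 and 0.46. Each of these values sets 1 array against 1 other, and the day 19 array is replicate 2, on which macrophage and interferon genes were high. The part of atrial tissue in the Nppa values was not tested. On the other arrays of high Myl7, diestrus replicate 3 and day 12 replicate 3, Nppa was at 11.03 and 11.13, the lowest values of the 8. The post-partum difference of Nppa was 0.14 ± 0.40 from diestrus (adjusted p = 0.948) and -0.60 ± 0.40 from day 19 (adjusted p = 0.631), with overlapping groups both times. With 1 array left out the difference from day 19 ranged from -1.05 (without day 19 replicate 2) to -0.15 (without day 19 replicate 1).

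**Figure D1:**
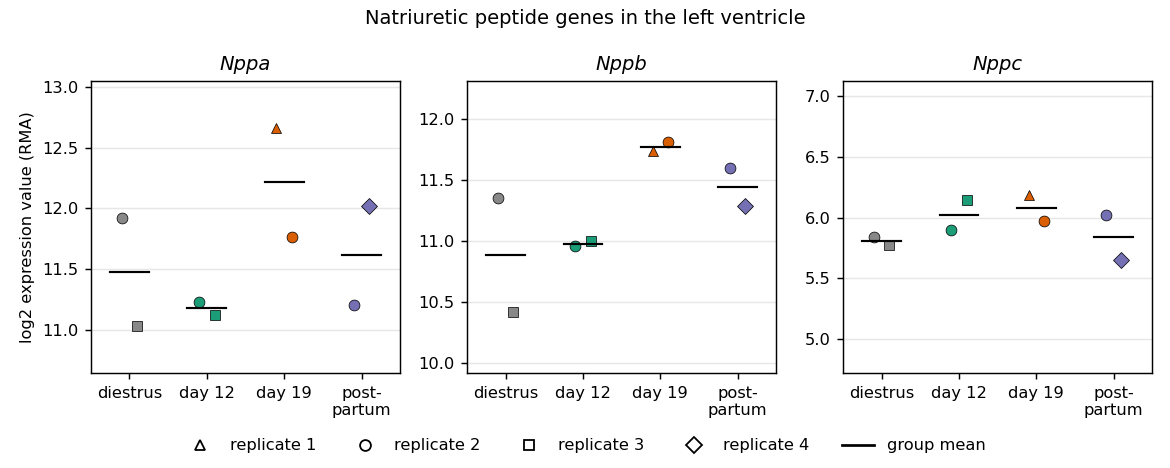
Log2 expression values (vertical axis, each panel with its own range) of Nppa, Nppb and Nppc on each of the 8 arrays, by state along the horizontal axis; marker shape gives the replicate number and the line the mean of the 2 arrays. Nppb at day 19 (11.74 and 11.81) lies above every other array, whereas the 2 Nppa values at day 19 are 12.66 and 11.77.

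Nppc, the C-type peptide gene, stood at 5.84 and 5.77 in diestrus, 5.90 and 6.15 at day 12, 6.19 and 5.97 at day 19 and 6.03 and 5.66 post-partum. Both pregnant groups were above diestrus without overlap, by 0.21 ± 0.17 log2 at day 12 (adjusted p = 1.00 in limma) and 0.27 ± 0.17 at day 19 (adjusted p = 0.681). The day 12 difference was 0.089 without day 12 replicate 3 and 0.34 without replicate 2, and the day 19 difference was 0.17 without day 19 replicate 1. The post-partum arrays lay on either side of the diestrus pair, with a mean difference of 0.032.

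Of the proteases, Corin was lowest on 1 post-partum array. Its values were 10.72 and 10.50 in diestrus, 10.92 and 10.82 at day 12, 10.89 and 10.80 at day 19 and 10.24 and 10.73 post-partum. Both pregnant groups lay above both diestrus arrays, by 0.26 ± 0.18 log2 at day 12 (adjusted p = 1.00) and 0.23 ± 0.18 at day 19 (adjusted p = 0.724). Without diestrus replicate 3 these were 0.15 and 0.13. Both post-partum arrays lay below the pregnant ones, with differences of -0.36 ± 0.18 log2 against day 19 (adjusted p = 0.591) and -0.38 ± 0.18 against day 12 (adjusted p = 0.622). Those 2 differences were -0.12 and -0.14 without post-partum replicate 2, the array at 10.24, and -0.60 and -0.62 without replicate 4.

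Furin, a protease of the secretory pathway that cuts many precursors, varied least: its 8 values spanned 0.22 log2 units, from 8.69 to 8.92. It stood at 8.74 and 8.69 in diestrus, 8.84 and 8.71 at day 12, 8.79 and 8.92 at day 19 and 8.90 and 8.87 post-partum. Its day 19 and post-partum arrays were above both diestrus arrays, by 0.14 ± 0.13 log2 (adjusted p = 0.755) and 0.17 ± 0.13 (adjusted p = 0.765). The day 19 difference was 0.074 without day 19 replicate 2.

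Npr1, the receptor gene for the atrial and B-type peptides, was highest at day 12. It stood at 6.62 and 6.72 in diestrus, 6.92 and 6.90 at day 12, 6.81 and 6.64 at day 19 and 6.60 and 6.68 post-partum. The day 12 arrays were above the other 6 arrays, by 0.24 ± 0.13 log2 in the mean against diestrus (unadjusted p = 0.0995, adjusted p = 1.00 in limma). Post-partum Npr1 differed from day 12 by -0.27 ± 0.13 log2 (adjusted p = 0.622). A second Npr1 probe set, with values of 5.27 to 5.52, had its day 12 arrays at 5.50 and 5.27 and so did not show this order.

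Npr2, the receptor gene for the C-type peptide, was lower in late pregnancy. It stood at 8.49 and 8.37 in diestrus, 8.58 and 8.31 at day 12, 8.22 and 7.87 at day 19 and 8.02 and 8.33 post-partum. Both day 19 arrays were below all diestrus and day 12 arrays, with a difference of -0.39 ± 0.18 log2 from diestrus (unadjusted p = 0.0707, adjusted p = 0.657 in limma) and -0.41 ± 0.18 from day 12 (unadjusted p = 0.0605, adjusted p = 0.675). The lowest array was day 19 replicate 2, on which macrophage and interferon genes were high and fibroblast, mural and endothelial markers low. Without it the differences were -0.21 and -0.23, and the part of those cells in the Npr2 values was not tested. Both post-partum arrays were below both diestrus arrays, with a difference of -0.25 ± 0.18 log2 (adjusted p = 0.765). It was -0.097 without post-partum replicate 2 and -0.41 without replicate 4.

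Npr3, the clearance receptor gene, had wide gaps between the arrays of 1 state, with 1.48 between the diestrus arrays, 1.02 between those of day 12 and 1.33 between those of day 19, while the post-partum pair differed by 0.46. Its values were 8.37 and 9.85 in diestrus, 8.05 and 9.07 at day 12, 9.17 and 7.84 at day 19 and 8.21 and 8.66 post-partum. Every group overlapped every other group. The differences from diestrus were -0.55 ± 0.59 log2 at day 12, -0.60 ± 0.59 at day 19 and -0.68 ± 0.59 post-partum (adjusted p = 1.00, 0.766 and 0.795 in limma). The 3 highest Npr3 values were those of the 3 arrays of highest Myl7, at 9.85, 9.07 and 9.17, and the other 5 arrays lay between 7.84 and 8.66. Without diestrus replicate 3 the differences from diestrus were 0.19, 0.14 and 0.066, and without diestrus replicate 2 they were -1.29, -1.35 and -1.42. The summed log2 level of mesothelial markers was also highest on those 3 arrays, at 9.04, 8.97 and 9.93 against 8.62 to 8.93 on the others. Of these markers, Msln, Upk1b, Upk3b and Lrrn4 had their highest values on those 3 arrays. Krt8, Krt18, Krt19, Cldn15 and Wt1 did not, and Krt18 (4.67) and Wt1 (6.46) were at their lowest on day 12 replicate 3. Among the endothelial markers, Vwf (9.39, 8.65 and 9.40 against 7.50 to 8.55) and Tek also had their highest values on those 3 arrays. So did the mural marker Tagln, and the other endothelial and mural markers did not. The part of any of these tissues or cells in the Npr3 values was not tested.

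**Figure D2:**
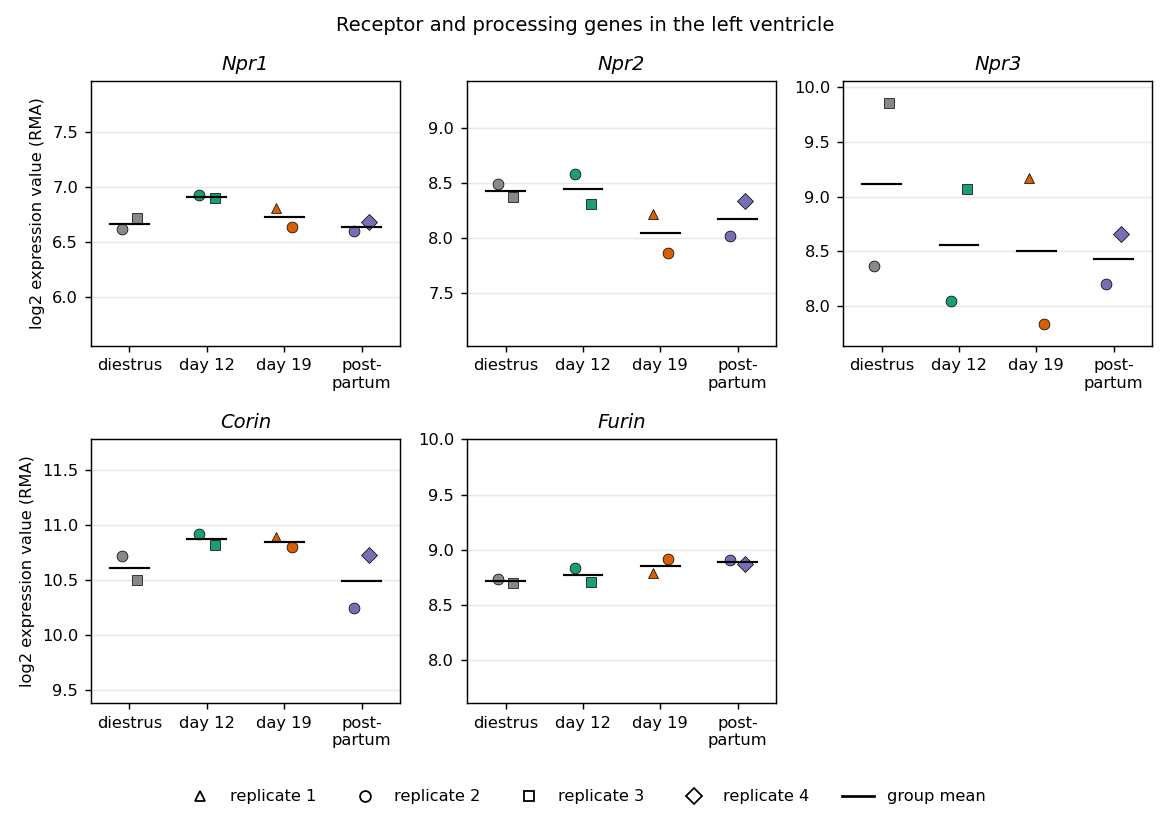
Log2 expression values (vertical axis, each panel with its own range) of the receptor genes Npr1, Npr2 and Npr3 and the protease genes Corin and Furin on each array, by state; shapes give the replicate number and lines the mean of 2 arrays. Npr3 spans 7.84 to 9.85 with wide gaps inside the groups, while Furin stays between 8.69 and 8.92.

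**Figure D3:**
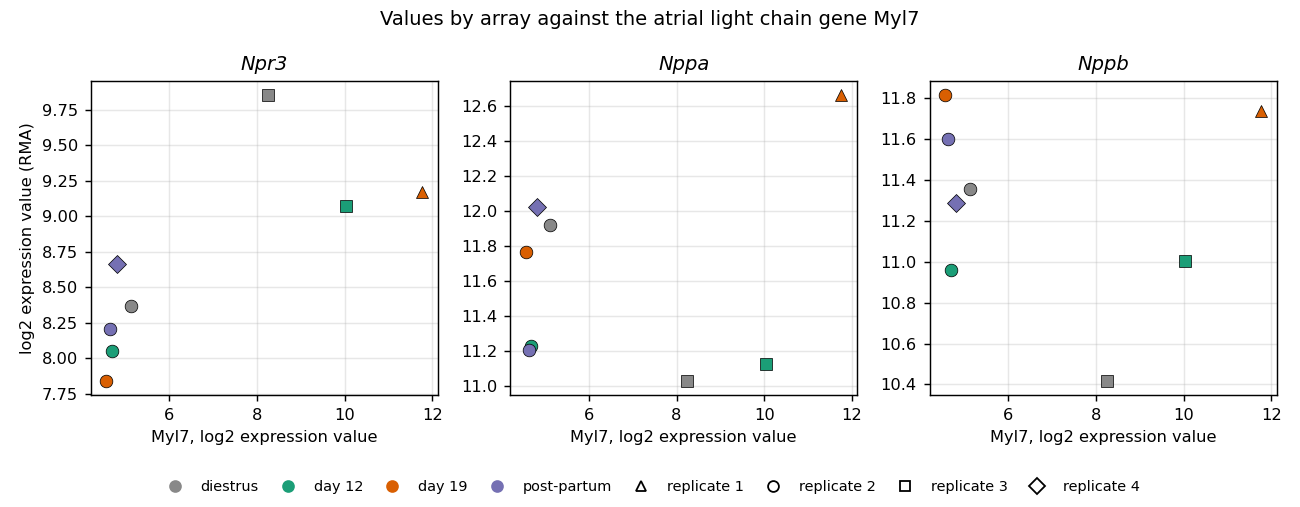
Each point is 1 array, placed by the log2 value of the atrial gene Myl7 (horizontal axis) and of Npr3, Nppa or Nppb (vertical axis); colour gives the state and shape the replicate number. The 3 arrays with Myl7 from 8.24 to 11.76 hold the 3 highest Npr3 values but both the lowest (11.03) and the highest (12.66) Nppa value.

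Over the 8 genes, 0 passed the adjusted threshold of 0.05 in limma in any of the 6 comparisons between groups, and the background was the same, with 0 of 13872 genes (0%) called in each. At an unadjusted p under 0.05, Nppb alone was found at day 19 against diestrus (background 7.29% of genes) and Nppa and Nppb at day 19 against day 12 (background 6.47%), while 0 members were found in the other 4 comparisons (background 2.31% at day 12 against diestrus, 6.62% post-partum against diestrus, 8.25% post-partum against day 19 and 8.12% post-partum against day 12). A moderated F test over the 3 differences from diestrus gave Nppb an unadjusted p of 0.0426 (adjusted p = 0.726) and the other members 0.151 to 0.669, where 5.81% of genes were under 0.05. With 2 arrays against 2 an exact permutation test of 1 gene cannot give a two-sided p under 0.333.

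Counts of members whose groups did not overlap were read against the same count over all genes. At day 19 against diestrus, 4 of the 8 were higher (Nppb, Nppc, Corin and Furin; background 16.4%) and 1 lower (Npr2; 20.4%). At day 12 against diestrus, 3 were higher (Nppc, Npr1 and Corin; 21.7%) and 0 lower (15.6%). Post-partum against diestrus, 1 was higher (Furin; 21.1%) and 1 lower (Npr2; 21.7%), a share below the background in both directions. Day 19 against day 12 had 2 higher (Nppa and Nppb; 16.3%) and 2 lower (Npr1 and Npr2; 23.2%). Post-partum against day 19 had 0 higher (19%) and 2 lower (Nppb and Corin; 14.3%), and post-partum against day 12 had 2 higher (Nppb and Furin; 20.5%) and 2 lower (Npr1 and Corin; 26%). The median log2 difference of the 8 genes from diestrus was 0.076 at day 12, 0.19 at day 19 and 0.0024 post-partum, against 0.017, -0.029 and -0.0037 over all genes tested.

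**Figure D4:**
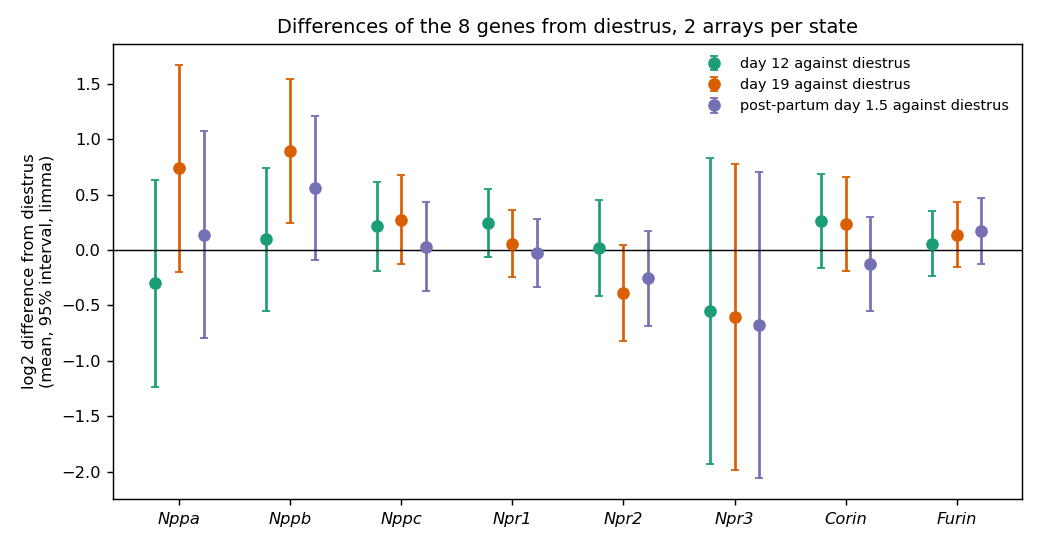
Log2 difference from diestrus (vertical axis) of the 8 genes at day 12, day 19 and day 1.5 post-partum, with 2 arrays per state; bars are 95% intervals from limma before any adjustment for the number of genes. The interval of Nppb at day 19, 0.24 to 1.54, is the only one shown that leaves out 0.

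Peptides are also cleared by enzymes, and furin has relatives that process the same kinds of precursor. Of 12 genes listed for processing and clearance, 11 were measured and 9 tested, and 0 passed the adjusted threshold against diestrus at any stage. Ide, the insulin-degrading enzyme that also degrades atrial natriuretic peptide, stood at 10.04 and 10.04 in diestrus, 9.35 and 9.23 at day 12, 9.26 and 9.20 at day 19 and 9.12 and 8.97 post-partum. Both diestrus arrays were above the other 6 arrays, and the differences were -0.76 ± 0.13 log2 at day 12, -0.81 ± 0.13 at day 19 and -1.001 ± 0.13 post-partum (adjusted p = 0.652, 0.503 and 0.445 in limma). With any 1 array left out they stayed at -0.82 to -0.69, -0.84 to -0.78 and -1.08 to -0.93. With day 19 replicate 1 left out, the day 19 difference of Ide had an adjusted p of 0.0163. In that setting day 19 is 1 array, replicate 2, assumed to vary like the other groups, and 9.27% of all genes tested were past the threshold against diestrus.

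Pcsk6, a convertase that activates corin, was lowest at day 19. It stood at 9.80 and 9.63 in diestrus, 9.34 and 9.33 at day 12, 9.12 and 8.80 at day 19 and 9.18 and 9.70 post-partum. The day 19 difference from diestrus was -0.76 ± 0.20 log2 (adjusted p = 0.657), and in the setting without day 19 replicate 1, where 9.27% of genes were past the threshold on the 1 array left, it was -0.91 (adjusted p = 0.0462). Post-partum Pcsk6 overlapped diestrus and lay above day 19, by 0.48 ± 0.20 (adjusted p = 0.589), or 0.21 without post-partum replicate 4 and 0.74 without replicate 2. Pcsk5, a related convertase, gave -0.43 ± 0.17 post-partum against diestrus (adjusted p = 0.722) and -0.44 ± 0.17 against day 19 (adjusted p = 0.589; -0.24 without day 19 replicate 1), and Pcsk7 -0.32 ± 0.12 at day 19 against day 12 (adjusted p = 0.675). The list median was -0.14, -0.21 and -0.28 at day 12, day 19 and post-partum against diestrus, set beside 0.017, -0.029 and -0.0037 over all genes tested.

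Downstream of the receptors, 13 of 17 listed makers and effectors of cyclic GMP were tested, and 0 passed against diestrus. Gucy1a1, a subunit of the soluble guanylyl cyclase that responds to nitric oxide, stood at 7.96 and 8.02 in diestrus, 7.64 and 7.71 at day 12, 7.74 and 6.82 at day 19 and 7.25 and 7.46 post-partum. All 6 pregnant and post-partum arrays were below the diestrus pair, with differences of -0.70 ± 0.27 log2 at day 19 (adjusted p = 0.657) and -0.64 ± 0.27 post-partum (adjusted p = 0.722). The related subunit gene Gucy1a2 gave -0.67 ± 0.28 at day 19. Both were lowest on day 19 replicate 2, and without it their day 19 differences were -0.25 and -0.20. Without replicate 1 they were -1.16 and -1.14 (adjusted p = 0.00451 and 0.00592), from replicate 2 alone, with the spread taken from the other groups and 9.27% of all genes past the threshold.

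Phosphodiesterases break down cyclic nucleotides. All 11 genes listed under that name, not all of which need encode a catalytic subunit, were tested, and 0 passed against diestrus. Pde1a, a calcium-stimulated form, stood at 6.19 and 6.06 in diestrus, 5.61 and 5.85 at day 12, 5.79 and 5.89 at day 19 and 5.51 and 5.75 post-partum. Both diestrus arrays were again the highest, and the difference was -0.39 ± 0.15 log2 at day 12 (adjusted p = 1.00) and -0.49 ± 0.15 post-partum (adjusted p = 0.722). Pde1b gave 0.37 ± 0.14 at day 19 against diestrus (adjusted p = 0.657) and -0.35 ± 0.14 post-partum against day 19 (adjusted p = 0.589). Pde2a, a form that cyclic GMP stimulates, gave -0.60 ± 0.22 at day 19 against day 12 (adjusted p = 0.675), and ranged from -0.81 without day 12 replicate 3 to -0.38 without day 12 replicate 2.

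All 25 listed regulators of Nppa and Nppb transcription were tested, and 0 passed against diestrus. Fos, a part of the AP-1 factor, had values of 4.71 and 5.49 in diestrus, 4.79 and 4.75 at day 12, 5.90 and 5.90 at day 19 and 5.13 and 4.90 post-partum. Its mean reached the filter value of 5.19 at day 19 only, so it was tested because of that group and its differences are not given.

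Nkx2-5, a cardiac homeobox factor, stood at 9.31 and 9.16 in diestrus, 9.02 and 8.82 at day 12, 8.98 and 9.18 at day 19 and 9.46 and 9.41 post-partum. The post-partum pair was the highest, by 0.52 ± 0.14 log2 over day 12 (adjusted p = 0.615) and 0.36 ± 0.14 over day 19 (adjusted p = 0.589). Tbx3, a repressor of Nppa in the conduction system, gave 0.35 ± 0.13 at day 12 and 0.34 ± 0.13 at day 19 against diestrus (adjusted p = 1.00 and 0.657). Jarid2, a repressor in the developing heart, gave -0.33 ± 0.14 at day 19 against diestrus (adjusted p = 0.657) and -0.37 ± 0.14 against day 12 (adjusted p = 0.675).

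Genes beside Nppa and Nppb had day 19 values close to those of diestrus. Clcn6, the next protein-coding gene beyond Nppa, was at 6.81 and 6.83 at day 19, against 6.97 and 6.87 in diestrus. Plod1, 2 genes from Nppb on the other side, was at 8.94 and 9.02 at day 19, against 9.04 and 8.80 in diestrus. Over the 5 tested of 6 listed neighbours the day 19 difference from diestrus ranged from -0.098 to 0.10 log2, beside 0.89 for Nppb.

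**Figure D5:**
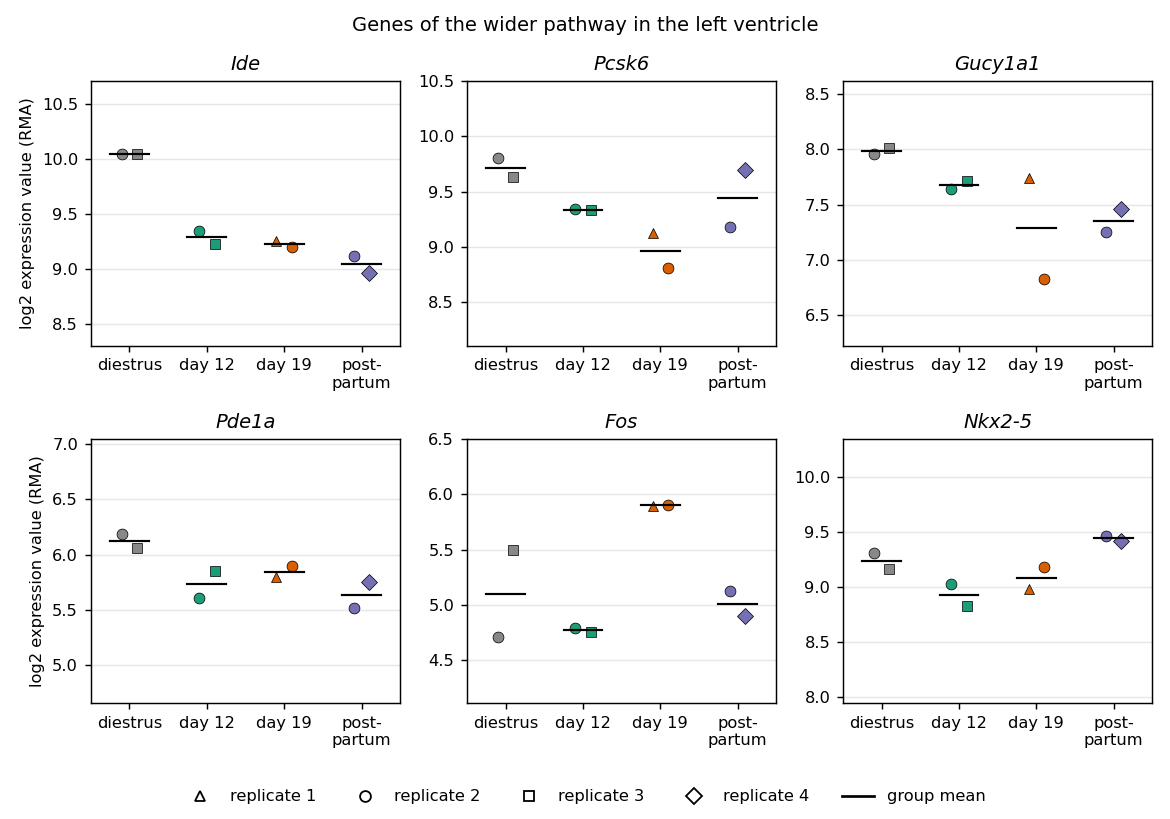
Log2 expression values (vertical axis, each panel with its own range) of Ide, Pcsk6, Gucy1a1, Pde1a, Fos and Nkx2-5 on each array, by state; shapes give the replicate number and lines the mean of 2 arrays. Ide, Gucy1a1 and Pde1a are highest on the 2 diestrus arrays. Fos is shown by its values only, since its mean reached the filter at day 19 alone.

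The genes most like each member across the 8 arrays were read from Pearson's correlation against 13033 others, as a description over arrays that also share group, cell content and array-wide effects. For Nppb they were Igsf23 (0.95), Nkain3 (0.94) and Rcan1 (0.93), a target of calcineurin. Nkain3, with values of 5.03 to 5.21, reached the filter in its day 19 mean only, so it was among the genes compared because of that group. Rcan1 stood at 8.99 and 8.30 in diestrus, 8.63 and 8.56 at day 12, 9.67 and 9.30 at day 19 and 9.56 and 9.19 post-partum. Its post-partum and day 19 values overlapped. For Nppa they were Trmt44 (0.94), Nifk (0.93) and Fem1b (0.91), and for Nppc they were Cpz (0.95), Abca4 (0.93) and Tox (0.91). For Npr3 they were Chrm3 (0.99), a muscarinic receptor gene, Olfml1 (0.97) and Apcdd1 (0.96). Npr1 was most like Mettl6 (0.95), Srfbp1 (0.95) and Pex5 (0.94), and Npr2 most like Zfand5 (0.98), Kif3a (0.97) and Phkb (0.97). Corin was most like Czib (0.98), Snx11 (0.97) and Tcp1 (0.96), and Furin most like Ldlrad1 (0.98), Uhrf1 (0.97) and Creb3l3 (0.97). Among all pairs of members the correlation was highest for Nppb with Furin (0.67) and lowest for Furin with Npr3 (-0.76), and it was 0.66 for the neighbours Nppa and Nppb.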

How the data were processed

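RNA of left ventricle pieces was measured on 8 one-colour arrays, from 100 ng of total RNA each, per the labels' protocols. The authors' deposited values are log2 expression values of 34365 probe sets. Per the submitters' processing notes they come from RMA, run in Affymetrix Expression Console. Neither its version nor a genome build is given in the sources used here. RMA brings the arrays to a common scale, which hides any difference in the amount of RNA in a cell. The deposited values do not share 1 distribution exactly: the array medians ran from 5.14 to 5.28. Of the 25335 annotated probe sets, 1814 with several symbols were left out, 23521 had 1 symbol and, per gene, the one of highest mean was kept (22180 genes); 9030 probe sets were unnamed here. Genes with a group mean of 5.19 or more, the overall median, were tested (13872 genes).

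Group means were compared in limma 3.58.1 under R 4.3.3 in 1 fit of the 8 arrays (4 residual and 3.68 prior degrees of freedom). Tests were two-sided and Benjamini-Hochberg adjustment ran over all genes tested. The labels do not tie samples to animals, so p-values reflect the spread between these samples only, which may be technical, and the number of arrays limits the precision (median SE 0.17). Correlations between arrays were 0.969 to 0.977 for day 19 replicate 2 with the others and 0.980 to 0.992 among the rest. In 20 simulated data sets for day 19 against diestrus over 13872 genes, 56.7% of genes changed 2-fold and 94.8% of those changed 4-fold were recovered, with 8.55 false calls on average. The simulation gave each gene the same variance in all groups, with noise independent between arrays. In the real data the day 19 pair differed more over the probe sets (SD of the difference 0.474) than the day 12 pair (0.277). The simulated recovery therefore need not hold for the real day 19 arrays. Diestrus and day 12 share replicate numbers 2 and 3. The deviations of replicate 2 from the group means correlated at 0.22 between these groups. With 2 arrays per group those of replicate 3 must give the same value, so this is 1 value and does not establish a pairing.

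The members, gene lists and rules were chosen with earlier results of these data known. Named were all members, up to 4 tested genes of smallest F test p in each pathway list (Rgs5, Vasp and Pde6d among them had no comparison with an unadjusted p under 0.05), any neighbours of Nppa and Nppb, and the 3 genes most like each member, without predicted genes. List genes' differences are given where the unadjusted p was under 0.05, except for Fos, whose mean passed the filter at day 19 only. Promoter sequences are RefSeq's (GRCm38.p6). Alternatives covered filters, normalization, variance model, array weights, groups fitted, probe set, a replicate block and each array left out.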

Additional observations from a re-analysis of the deposited data

How the results depend on the processing

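In every alternative run, 0 of the 8 genes passed the adjusted threshold in any comparison, and a count of 0 in a design of this size does not show that the genes were equal. With the 8 arrays left out in turn, 352 of 384 differences of the members kept their direction and 32 turned. Leaving out an array outside the groups compared cannot change a difference, so a large part of the 384 kept their direction by construction. Nppb at day 19 against day 12 stayed between 0.76 and 0.83. The members that turned ranged, at day 12 against diestrus, from -0.74 to 0.15 for Nppa, -0.37 to 0.56 for Nppb, -0.12 to 0.15 for Npr2, -1.29 to 0.19 for Npr3 and -0.0069 to 0.12 for Furin. At day 19 against diestrus they ranged from -0.031 to 0.14 for Npr1 and -1.35 to 0.14 for Npr3. Post-partum against diestrus they ranged from -0.31 to 0.58 for Nppa, -0.15 to 0.22 for Nppc, -0.079 to 0.025 for Npr1, -1.42 to 0.066 for Npr3 and -0.37 to 0.12 for Corin. At day 19 against day 12 they ranged from -0.065 to 0.18 for Nppc, -0.72 to 0.61 for Npr3 and -0.075 to 0.027 for Corin. Post-partum against day 19 they ranged from -0.17 to 0.0044 for Npr1, -0.044 to 0.31 for Npr2, -0.74 to 0.59 for Npr3 and -0.031 to 0.099 for Furin, and post-partum against day 12 from -0.37 to 0.0036 for Nppc and -0.64 to 0.38 for Npr3. In the other planned settings 387 of 392 kept their direction, but most of these could not turn. The filters, variance model, array weights, groups fitted and replicate block leave these differences of group means as they were. Only normalizing again, centring and, for Npr1, the mean of its probe sets could move them. Centring the arrays on their medians turned Npr1 at day 19 against diestrus to -0.012, Nppc post-partum against diestrus to -0.0095 and Nppc at day 19 against day 12 to -8.24e-04. The mean of both probe sets turned Npr1 post-partum to 0.039 against diestrus and 0.0092 against day 19. Leaving out the 3 arrays of highest Myl7, chosen after seeing the data, turned 10 of 48: Nppb at day 12 (-0.39), Nppa at day 19 (-0.15), and post-partum Nppa (-0.31), Nppc (-0.0021), Npr1 (0.025) and Npr3 (0.066), each against diestrus; Npr1 (0.0044), Npr3 (0.59) and Furin (-0.031) post-partum against day 19; and Npr3 (0.38) post-partum against day 12. In that setting 3 groups hold 1 array and are assumed to vary like the post-partum pair.

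The number of all genes past the threshold was 0 in each comparison. Without day 19 replicate 1 it was 1311 at day 19 against diestrus, 1374 at day 19 against day 12, 929 post-partum against day 19, 2 post-partum against day 12 and 702 in the F test. Without the 3 arrays it was 322, 283, 352 and 185 for day 19 against diestrus, day 19 against day 12, post-partum against day 19 and the F test. The remaining nonzero counts were 1 to 4, and 29 at day 12 against diestrus with the replicate number as a block; under that block Npr3 gave -0.55 (unadjusted p = 0.00520, adjusted p = 0.258), Corin 0.26 and Npr1 0.24, and 0 members passed. The other groups share fewer than 2 numbers. The cause of these changes was not tested.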
